A study of Mus musculus with 4 samples.

Results

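The genes of the ISG15 conjugation machinery were examined in Her2-driven mouse mammary tumour cells of 2 Pak1 genotypes, Pak1 being a p21-activated kinase. They are Isg15 itself and the genes for its activating enzyme Uba7, its conjugating enzyme Ube2l6, the ligases Herc6 and Trim25 and the protease Usp18. All 6 genes were found on the array among 31896 gene names, 5 by the name the array gives and Herc6 by accession, since the array calls its 2 probes Herc5 while the accession they carry belongs to Herc6. Together they had 8 probes, and the brightest probe of a gene stood for it. The 6 genes were chosen because interferon response genes had the largest increases in this same comparison, so that their values are a description and were not tested.

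Total RNA was measured on 4 single-colour (Cy3) Agilent arrays with 60-base probes, 2 labelled Pak1 -/- and 2 labelled Pak1 +/+. The cells were cultured from tumours of MMTV-Neu animals. This transgene puts the oncogene Neu (Her2, Erbb2) under a viral promoter active in mammary epithelium, and all 4 samples carried it. All had been kept without serum for 3 h and then given EGF for 15 min. The series gives 2 tumours for each genotype and does not say which sample came from which, so that the spread between samples of a group may be partly technical. The age of the mice is not given in the sources used here.

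ISG15 is a ubiquitin-like protein that cells make in response to type I interferon and to infection. It is activated by Uba7, passed to Ube2l6 and attached to lysines of other proteins with the help of a ligase, and Usp18 takes it off again. Interferon reaches these genes through the receptor subunits Ifnar1 and Ifnar2, the kinases Jak1 and Tyk2 and the transcription factor ISGF3, which contains Stat2 and Irf9 and binds a promoter element called ISRE. In mice Herc6 is the main ISG15 ligase, and Usp18 also limits interferon signalling by binding Ifnar2 with the help of Stat2.

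The arrays were alike in overall signal. The median spot intensity was 328 and 331 in Pak1 -/- and 330 and 322 in Pak1 +/+, the local background was 39.0 to 42.0, and 62.2% to 70.4% of the probes were well above background. All 4 arrays lay on 1 slide in 1 scan, Pak1 -/- at positions 1 and 2 and Pak1 +/+ at positions 3 and 4. Effects of position and of genotype cannot be told apart. The probe for Pak1 gave a normalized log2 intensity of 12.21 and 12.25 in the arrays labelled Pak1 -/- and 12.04 and 12.04 in those labelled Pak1 +/+. This difference, 0.19 with an SE of 0.068, was not past the threshold (limma with Benjamini-Hochberg adjustment over all probes, adjusted p = 0.07), so the array did not show the loss of the transcript. After cyclic loess normalization Pak1 was higher by 0.27 in the arrays labelled Pak1 -/- and passed it (adjusted p = 0.0265). Whether the probe lies in the deleted part of the gene is not given in the sources used here, and every direction rests on the labels. The probe for Erbb2 was lower by 0.31 log2 in Pak1 -/- (limma adjusted p = 0.0201). Whether it reads the transgene, the mouse gene or both is not given in the sources used here. The call was lost, at −0.29, without Pak1 -/- replicate 1 and, at −0.28 and −0.33, without Pak1 +/+ replicate 1 or 2. Of 22002 genes tested, 22.8% were higher and 28.2% lower in Pak1 -/- at an adjusted p under 0.05. By probes, 6354 were higher and 7790 lower, and with cyclic loess normalization this balance turned to 7330 higher and 6654 lower.

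All 8 probes were well above background and none was saturated on any array. The 6 genes were all higher in Pak1 -/- than in Pak1 +/+, and the groups did not overlap for any of the 8 probes. Over all genes tested the groups did not overlap in this direction for 34.2%, and since the 6 genes were chosen by this comparison nothing is read from their count. The median log2 difference of the 6 genes was 2.84, or 7.18-fold, within a range of 0.92 to 7.13, against a median of −0.055 over all genes tested. In these cultures, more cells with the transcripts and more RNA per cell cannot be told apart.

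**Figure D1:**
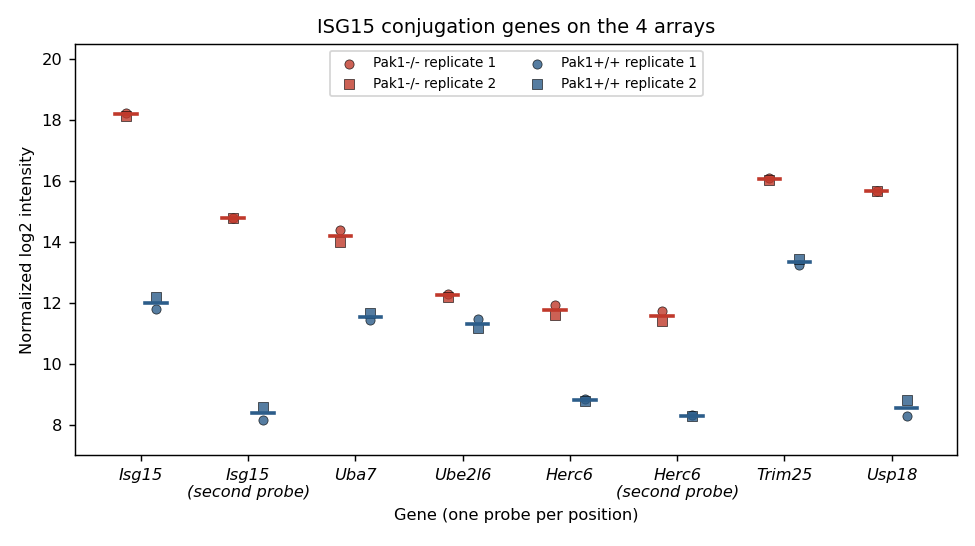
Normalized log2 intensity (vertical axis) of the 8 probes of the 6 ISG15 conjugation genes (horizontal axis) on the 4 arrays. Each symbol is an array, circles for replicate 1 and squares for replicate 2, red for Pak1 -/- and blue for Pak1 +/+, and each bar is the mean of 2 arrays. The red symbols lie above the blue ones for every probe, by the widest margin for Usp18 and the narrowest for Ube2l6.

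Isg15 encodes the modifier itself, which is also released from cells. Its brighter probe (A_55_P2103698, mm9 chr4:155573649-155573708, minus strand) had a normalized log2 intensity of 18.24 and 18.14 in Pak1 -/- and of 11.81 and 12.20 in Pak1 +/+. Both Pak1 -/- arrays were close to each other and far above both Pak1 +/+ arrays. The means were 18.19 ± 0.076 and 12.01 ± 0.27 (SD, n = 2 each), and the difference was 6.18 (SE 0.20), or 72.6-fold, the 28th largest increase among the genes tested. Before normalization the spots read 261520 and 285456 in Pak1 -/-, and 3691 and 4547 in Pak1 +/+. The second probe (A_66_P128537, mm9 chr4:155573533-155573552, with coordinates for 20 of its 60 bases) read 14.79 and 14.79 against 8.17 and 8.60. Its difference of 6.41 (SE 0.22), or 85.0-fold, was close to that of the first probe. The 250 bases before the Isg15 start (RefSeq, GRCm38.p6, chr4:156200819-156201068, minus strand) are shown because they hold 3 overlapping copies of the ISRE core, which stand in capitals.
Isg15 promoter: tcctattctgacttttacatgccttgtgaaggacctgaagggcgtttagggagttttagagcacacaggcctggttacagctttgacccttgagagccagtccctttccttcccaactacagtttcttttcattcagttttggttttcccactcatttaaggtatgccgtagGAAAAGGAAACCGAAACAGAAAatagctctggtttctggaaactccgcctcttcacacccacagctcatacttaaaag

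Uba7 is the E1 enzyme that activates ISG15, the entry step of the cascade. Its probe (A_55_P2026233, mm9 chr9:107886328-107886387, plus strand) read 14.38 and 14.004 in Pak1 -/- and 11.44 and 11.67 in Pak1 +/+. The means were 14.19 ± 0.27 and 11.55 ± 0.16 (SD, n = 2 each). They differed by 2.64 on the log2 scale (SE 0.22), or 6.24-fold. The gap between the groups was far wider than that between replicates.

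Ube2l6 is the E2 enzyme that receives ISG15 from Uba7. Its probe (A_55_P2031125, mm9 chr2:84649861-84649920, plus strand) read 12.30 and 12.19 in Pak1 -/- and 11.48 and 11.17 in Pak1 +/+. It had the smallest difference of the 6 genes, 0.92 (SE 0.16), or 1.90-fold, from means of 12.25 ± 0.073 and 11.32 ± 0.22 (SD, n = 2 each). The lowest Pak1 -/- array still lay 0.72 above the highest Pak1 +/+ array.

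Herc6 is a HECT ligase with an RCC1-like domain that joins ISG15 to its targets. Its brighter probe (A_52_P64514, mm9 chr6:57568608-57568667, plus strand) read 11.94 and 11.59 in Pak1 -/- and 8.86 and 8.78 in Pak1 +/+. The means were 11.77 ± 0.25 and 8.82 ± 0.058 (SD, n = 2 each), and the log2 difference was 2.95 (SE 0.18), or 7.74-fold. The second probe (A_52_P679860, mm9 chr6:57612406-57612719, a span of 314 bases for 60 bases of probe) read 11.72 and 11.42 against 8.31 and 8.28. Its difference was 3.27 (SE 0.15), or 9.67-fold, so that both probes gave the same order of arrays. The probe sequences are shown because the array names them for Herc5.
A_52_P64514: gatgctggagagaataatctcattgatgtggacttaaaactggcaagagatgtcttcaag
A_52_P679860: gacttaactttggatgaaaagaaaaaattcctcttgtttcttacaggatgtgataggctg

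Trim25 is a RING ligase that was described as an ISG15 ligase and that also ubiquitinates the RNA sensor RIG-I. Its probe (A_55_P2098071, mm9 chr11:88881521-88881580, plus strand) read 16.10 and 16.05 in Pak1 -/- and 13.23 and 13.45 in Pak1 +/+. The means were 16.08 ± 0.037 and 13.34 ± 0.15 (SD, n = 2 each), and the log2 difference was 2.74 (SE 0.11), or 6.67-fold. The 60 bases before its start (RefSeq, GRCm38.p6, chr11:88999343-88999402, plus strand) are shown for a match to a looser form of the ISRE core on the opposite strand, in capitals, which ends at the last base before the start.
Trim25 promoter: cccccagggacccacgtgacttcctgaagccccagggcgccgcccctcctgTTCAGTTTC

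Usp18 is the protease that removes ISG15 from its targets. Its probe (A_55_P2114953, mm9 chr6:121220874-121220933, plus strand) read 15.68 and 15.68 in Pak1 -/- and 8.30 and 8.80 in Pak1 +/+. The means were 15.68 ± 0.0041 and 8.55 ± 0.36 (SD, n = 2 each), and the log2 difference was 7.13 (SE 0.25), the 9th largest increase among the genes tested. On the linear scale this was 140.4-fold. Thus the modifier and its protease differed most between the groups, and the conjugating enzyme least.

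The order of the differences was Usp18, Isg15, Herc6, Trim25, Uba7 and Ube2l6. Usp18 exceeded Isg15 by 0.95 (combined SE 0.32), and Isg15 exceeded Herc6 by 3.23 (combined SE 0.27). The gap from Herc6 to Trim25, 0.22, was about as large as its combined SE of 0.21, and that from Trim25 to Uba7, 0.096, was smaller than its combined SE of 0.25. The first of these gaps depended on the probe and the scaling, since the second probe of Herc6 gave 3.27 and the processed signal gave 3.22 for Herc6 against 2.66 for Trim25. These SEs describe the spread over the arrays that the choice of genes used, and the order was not tested. Ube2l6 followed at a gap of 1.72 (combined SE 0.27). Within Pak1 -/- the first replicate had the higher value for 6 of 6 genes, with a median gap of 0.11 that matched the 0.11 over all genes tested. Within Pak1 +/+ the first replicate was higher for 2 of 6 genes, and the median gap of 0.27 was wider than the 0.083 over all genes.

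The profiles of the 6 genes over the 4 arrays were compared after centring each gene on its mean, as the Euclidean distance in log2 units, which over 2 groups of 2 mostly measures the size of the difference. Isg15 and Usp18 lay 0.96 apart, while Uba7, Herc6 and Trim25 lay 0.25 to 0.38 from each other. Of 13270 other genes well above background on every array, those nearest to Isg15 were Irf7 (distance 0.18), Lgals3bp (0.21) and Oasl1 (0.22), with log2 differences of 6.09, 6.15 and 6.21. Those nearest to Usp18 were Oas1a (0.14), Ifi44 (0.18) and Ifit1 (0.27), with differences of 7.22, 7.03 and 7.25. Irf7 is a transcription factor that drives interferon genes, and Oasl1, Oas1a, Ifi44 and Ifit1 are interferon response genes. Close to the genes with middling differences lay Olfml3 (0.045), Rnd3 (0.093) and Oas3 (0.12) for Uba7, and Tnfrsf11b (0.085), Adamts15 (0.11) and Irf9 (0.11) for Trim25. For Herc6 they were Slc22a17 (0.069), Susd4 (0.11) and Arhgef6 (0.13). For Ube2l6 they were the actin regulator Vasp (0.062), Ptgfrn (0.10) and Intu (0.11).

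Each ISG15 gene except Trim25 was then set beside the other genes of its protein class, which the choice of the 6 genes did not use. The counts of each class stand against 22.8% higher and 28.2% lower over all genes tested. Among 21 other ubiquitin-like modifiers, ubiquitin genes included, 7 were higher, 4 lower and 10 not past the threshold (limma, adjusted p under 0.05), with a median log2 difference of 0.13. Apart from Ubd their range was −0.45 to 0.75. Ubd (FAT10), a modifier induced by interferon gamma and tumour necrosis factor, was not well above background in Pak1 +/+ and was at least 3.95-fold higher in Pak1 -/-. Ubd responds to interferon and passed the filter only through the Pak1 -/- arrays. Its value is therefore a description, although the 7 higher genes include it. Map1lc3b, an autophagosome protein, rose by 0.75 log2 (adjusted p = 0.00211), while Ubl3 fell by 0.45 (adjusted p = 0.00579). Sumo3 differed by −0.37 (adjusted p = 0.0244). This call was lost, at −0.28, without Pak1 -/- replicate 1 (adjusted p = 0.0647) and, at −0.36 and −0.38, without Pak1 +/+ replicate 1 (0.0956) or 2 (0.0875). It was also lost as a mean over the probes of the gene (−0.22, adjusted p = 0.1). The "at least" fold sets the mean of the bright group against the dimmest signal that was well above background. With any 1 sample left out, 4 to 6 of these genes were higher and 1 to 3 lower.

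Among the 9 other E1 enzymes, 1 was higher, 3 were lower and 5 were not past the threshold, with a median of −0.24. Uba6, the other E1 enzyme for ubiquitin beside Uba1, fell by 0.77 log2 (adjusted p = 0.0017). Uba1 itself differed by 0.31 (adjusted p = 0.0283), and Sae1, a subunit of the SUMO E1, differed by −0.46 (adjusted p = 0.0187). Both calls were lost without Pak1 -/- replicate 1 (adjusted p = 0.0859 and 0.0554) and without Pak1 +/+ replicate 1 (0.129 and 0.0807) or 2 (0.0954 and 0.05). The difference of Uba1 was also lower, at 0.053 (adjusted p = 0.605) and 0.059 (0.561) with the processed and the normexp signal scaled to the 75th percentile and 0.11 (0.255) as a mean over its probes. Its second probe differed by −0.082 (adjusted p = 0.378), and with the replicate block the adjusted p was 0.0539. With either Pak1 +/+ sample left out, no E1 enzyme was higher and 1 was lower, and without Pak1 -/- replicate 1 none was higher and 2 were lower.

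Of 31 other E2 enzymes, 5 were higher, 10 lower and 16 not past the threshold, with a median of −0.039 and a range of −0.83 to 0.75. Ube2q1 rose by 0.75 (adjusted p = 0.00204) and Ube2f, an E2 for NEDD8, by 0.62 (adjusted p = 0.00512). Ube2t, which acts with the Fanconi anaemia core complex, fell by 0.83 (adjusted p = 0.01). Ube2c, an E2 of the anaphase-promoting complex, differed by −0.70 (adjusted p = 0.0285), a call that was lost, at −0.69 and −0.72, without Pak1 +/+ replicate 1 (adjusted p = 0.0803) or 2 (0.0733). Without Pak1 -/- replicate 1 or 2 it was −0.45 or −0.96, and with no filter its adjusted p was 0.0503. The difference of Ube2l6, 0.92, lay above that of Ube2q1, the highest of these 31. With 1 sample left out, 3 to 4 were higher and 3 to 8 lower.

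Of 22 other HECT ligases, 5 were higher, 6 lower and 11 not past the threshold, with a median of −0.10. Herc2, a large relative of Herc6 with a part in DNA repair, fell by 1.40 log2 (adjusted p = 0.000811), and Wwp1 fell by 0.80 (adjusted p = 0.00136). Wwp2 rose by 1.28 (adjusted p = 0.00152) and Hectd3 by 0.95 (adjusted p = 0.00117). Herc6 and Herc2 thus lay on opposite sides of 0.

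Of 40 other ubiquitin-specific proteases tested, 12 were higher, 9 lower and 19 not past the threshold, with a median of 0.018. Usp11 rose by 1.02 (adjusted p = 0.00155) and Usp19 by 0.98 (adjusted p = 0.000695). Usp39, a splicing factor of this family, fell by 0.96 (adjusted p = 0.00297). Usp44 was at least 1.92-fold lower in Pak1 -/-, where it was not well above background. It passed the filter only through the Pak1 +/+ arrays, so its value is a description, although the 9 lower genes include it. With 1 sample left out, 9 to 12 were higher and 2 to 4 lower.

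**Figure D2:**
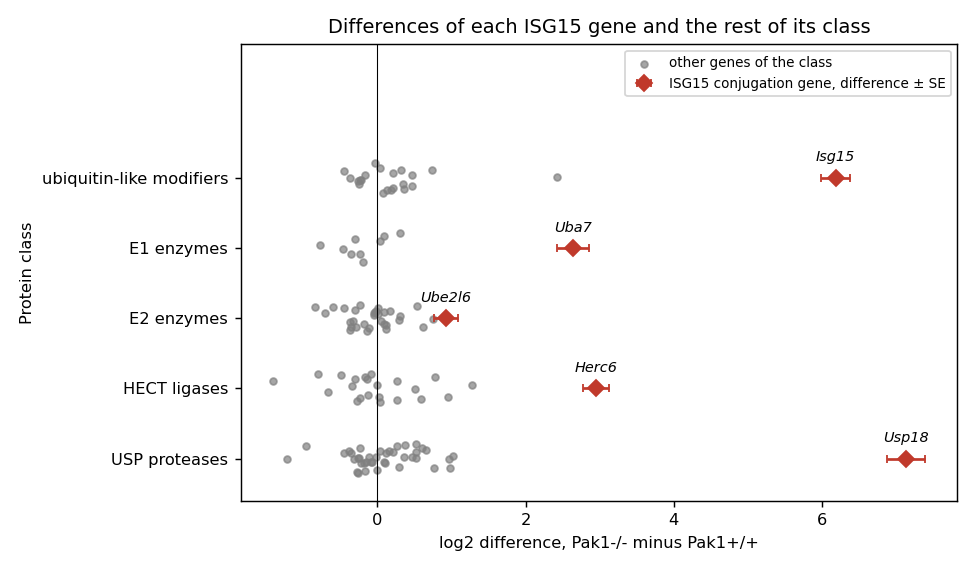
Log2 difference, Pak1 -/- minus Pak1 +/+ (horizontal axis), of each ISG15 gene (red diamond, with SE over 2 arrays per group) and of the other tested genes of its protein class (grey circles), 1 class per row. Apart from Ubd, the grey circles lie between −1.40 and 1.28, and the 5 diamonds lie beyond the others of their class, that of Ube2l6 (0.92) closest to them (Ube2q1, 0.75). The diamonds were selected on this comparison, Trim25 has no class here, and Ubd and Usp44, not well above background in 1 group, are drawn at measured differences that have only a bound.

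Genes whose proteins bind ISG15, Usp18 or their conjugates were taken from a list of 14, of which 13 were tested. Of these, 3 were higher, 3 lower and 7 not past the threshold, with a median log2 difference of 0.049, so that the shares in each direction were close to those over all genes. The largest difference was that of Stat2, the interferon transcription factor that also brings Usp18 to the receptor. Stat2 read 13.73 and 13.42 in Pak1 -/- and 10.72 and 10.90 in Pak1 +/+, a difference of 2.77 log2 (SE 0.13), or 6.80-fold, given without a test because it is itself an interferon response gene. Ifnar2, the receptor subunit that Usp18 binds, read 14.16 and 14.10 against 14.02 and 14.14, with a difference of 0.049 (SE 0.080, adjusted p = 0.638).

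Partners on the side of conjugation had small differences. Arih1, a RING-between-RING ligase with ISG15 activity, differed by 0.38 (adjusted p = 0.0134), a call that was lost without Pak1 -/- replicate 1 (adjusted p = 0.0518) or 2 (0.0524) and without Pak1 +/+ replicate 2 (0.0777), and its second probe gave 0.016 (adjusted p = 0.908), with 0.20 (adjusted p = 0.094) as a mean over its probes. The E2 enzyme Ube2e1, which can itself be modified by ISG15, and its relative Ube2e2 differed by 0.097 (adjusted p = 0.315) and −0.014 (adjusted p = 0.914). Skp2, the ligase subunit that targets Usp18 for degradation, fell by 0.52 (adjusted p = 0.00601).

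Several other proteases react with ISG15 as well as with ubiquitin. Usp2 rose by 0.53 (adjusted p = 0.00401). Usp14 differed by −0.45 (adjusted p = 0.0134), with −0.78 in its second probe (adjusted p = 0.00144), and the first value was not past the threshold without Pak1 -/- replicate 1 (adjusted p = 0.0629) or 2 (0.0551) or Pak1 +/+ replicate 2 (0.0633). Usp5 differed by −0.015 (adjusted p = 0.868), and Usp13 was not well above background on the 4 arrays.

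The integrin LFA-1, made of Itgal and Itgb2, is the receptor for ISG15 outside cells. Itgb2 read 7.98 and 8.18 in Pak1 -/- and 9.12 and 9.03 in Pak1 +/+, and fell by 1.00 log2 (adjusted p = 0.00165). Itgal differed by −0.30 (adjusted p = 0.166), with −0.49 (adjusted p = 0.0353) without Pak1 +/+ replicate 1 and −0.099 (0.557) without replicate 2. Hdac6 and Sqstm1, which carry ISG15 conjugates to autophagy, differed by 0.13 (adjusted p = 0.309) and 0.10 (adjusted p = 0.579).

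Proteins known to be modified by ISG15 were represented by 20 genes, all tested, of which Jak1 also stands on the list of interferon input. Of these, 8 were higher, 7 lower and 5 not past the threshold, with a median log2 difference of 0.065. The shares over all genes tested were 22.8% higher and 28.2% lower. The 8 include interferon response genes, so nothing is read from their count. The 2 with the largest increases, Ifih1 and Mx1, are interferon response genes and are given as a description. Ifih1 (MDA5), a sensor of viral RNA, read on average 14.15 ± 0.083 against 10.24 ± 0.17 (SD, n = 2 each), a difference of 3.90. Mx1, an antiviral GTPase, was not well above background in Pak1 +/+ and was at least 7.69-fold higher in Pak1 -/-. Eif2ak2 (2.42) and Ddx58 (2.11) had the next largest increases of the list. Hif1a, the hypoxia factor, fell by 1.51 (adjusted p = 0.000328), and Ccnd1 (cyclin D1) fell by 1.34 (adjusted p = 0.000683). Without Pak1 -/- replicate 1 or Pak1 +/+ replicate 1, 4 of the 20 genes were lower.

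The genes that carry the interferon signal to the ISG15 genes include interferon response genes, whose increases in this same comparison led to the choice of the 6 genes. Their values are therefore a description, and nothing is read from their count. Of 13 tested from a list of 14, 9 were higher, none lower and 4 not past the threshold in limma, with a median log2 difference of 0.89. At an unadjusted p under 0.05, 1 was lower. The share of all genes that were higher was 22.8%. Irf7 read 14.30 and 14.26 in Pak1 -/- and 8.10 and 8.28 in Pak1 +/+, a difference of 6.09 (SE 0.089), or 68.1-fold. Irf9, the DNA-binding part of ISGF3, read 14.65 and 14.62 against 11.66 and 11.97, a difference of 2.82 (SE 0.12). With Stat2, they were higher in both Pak1 -/- arrays than in either Pak1 +/+ array.

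The interferon genes on the list were at or near background. Ifnb1 read 7.96 and 7.997 in Pak1 -/- and 7.93 and 6.67 in Pak1 +/+, where the second array was not well above background. It differed by 0.68 (SE 0.42, adjusted p = 0.241), a value that rested on 1 sample, since it was 1.31 (adjusted p = 0.00263) without Pak1 +/+ replicate 1 and 0.043 (adjusted p = 0.787) without replicate 2. Ifna4 was not well above background on the 4 arrays.

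**Figure D3:**
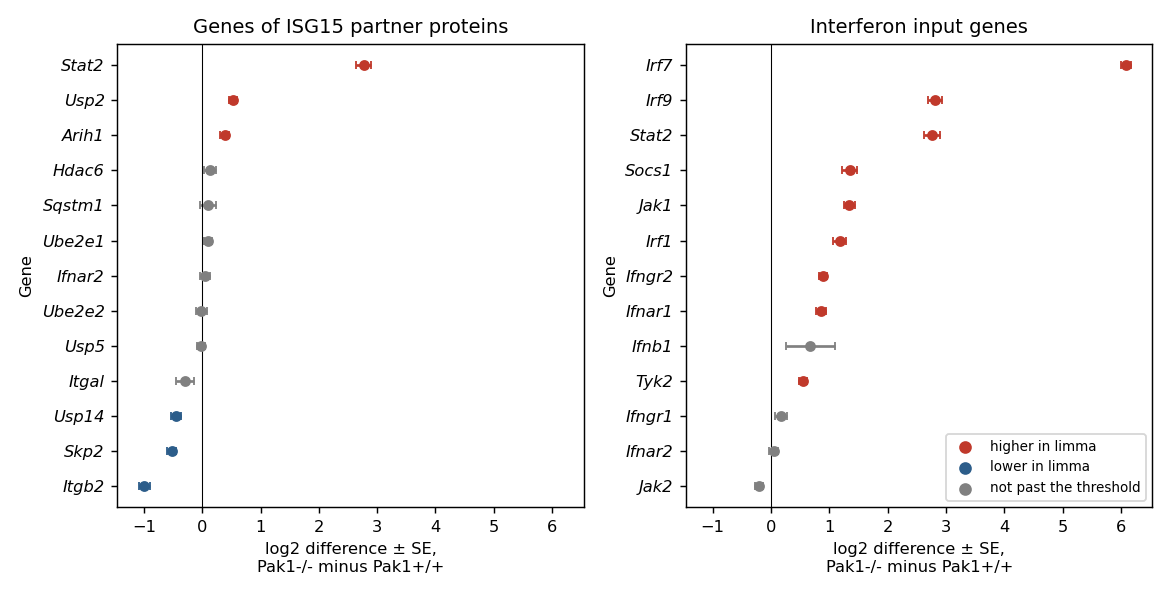
Log2 difference, Pak1 -/- minus Pak1 +/+, with the SE of the limma fit (horizontal axes), of 13 genes for partners of ISG15 or Usp18 (left) and 13 genes of interferon input (right). Red circles were higher, blue circles lower and grey circles not past an adjusted p of 0.05. Stat2 (2.77) stands apart from the other partners, and Irf7 (6.09) is the largest difference on the right, where no circle is blue.

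The promoters of the 6 genes were searched for the ISRE core GAAANNGAAA, a looser form GAAANNGAA, and the GAS element TTCNNNGAA, known from the response to interferon gamma, on both strands. The windows ran from 250 bases before to 50 bases after the start (RefSeq, GRCm38.p6). Every match to the core is also a match to the looser form. Of 32851 such windows, 3.44% held the core, 8.56% the looser form and 8.3% the GAS element. The Isg15 promoter printed above held the core 3 times on its own strand, at −78 to −69, −72 to −63 and −66 to −57 from the start. Trim25 held the looser form once, at −9 to −1, as printed above. The windows of Uba7, Ube2l6 and Herc6 held none of these letters, and no window of the 5 genes held the GAS element. Usp18 had no entry in the promoter table.

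Over the genes tested that had a promoter in the table, the share with the core was described by the size of the difference, with no test. It was 23.1% (18 of 78) among genes higher by at least 4 log2 in Pak1 -/-, a range that includes Isg15. It was 9.27% (23 of 248) from 2 to 4 log2 higher, the range of Uba7, Herc6 and Trim25, and 6.02% (41 of 681) from 1 to 2 log2 higher. Within 1 log2 either way, where Ube2l6 falls, it was 3.23% (349 of 10814), and among genes lower by at least 1 log2 it was 3.96% (30 of 758). The share was thus highest in the range with the largest increases. Of 14 interferon input genes with a promoter, 3 held the core, namely Ifna4, Stat2 and Socs1. On the other lists it was also held by Ifih1 (log2 difference 3.90), Eif2ak2 (2.42), Ddx58 (2.11), Usp49 (0.16), Mocs3 (0.038) and Skp2 (−0.52).

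The nearest genes with a probe on each side of the 6 genes were examined on the array's mm9 coordinates. Of those tested, none showed a difference of the size of its neighbour's. Next to Isg15, Agrn (at −30.4 kb, towards lower coordinates) differed by 0.56 (adjusted p = 0.0516). Its difference was 0.80 (adjusted p = 0.0139) without Pak1 -/- replicate 2 and 0.32 (0.0803) without replicate 1, and its adjusted p was 0.0347 with cyclic loess, 0.038 with the filter on all 4 arrays and 0.0395 in the authors' table. Perm1 (at 21.6 kb) differed by 0.30 (adjusted p = 0.0406), a call that was lost with any 1 of the 4 samples left out (adjusted p = 0.0562 to 0.181), with no filter (0.0698) and with the normexp signal scaled to the 75th percentile (0.0798). Next to Uba7, the ligase Traip, which acts in DNA replication, fell by 0.63 (adjusted p = 0.00385), and Inka1, whose probe lay 0.543 kb away, differed by −0.023 (adjusted p = 0.832). Inka1 encodes an inhibitor of the PAK family kinase Pak4. Next to Ube2l6, Serping1 differed by −0.10 (adjusted p = 0.278), and Smtnl1 was too dim to test. Timm10, the gene after Smtnl1, fell by 0.79 (adjusted p = 0.00187), a size near the 0.92 by which Ube2l6 was higher.

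On the sides of Herc6, Ppm1k fell by 0.65 (adjusted p = 0.00396) while Pyurf differed by −0.46 (adjusted p = 0.0163). The call of Pyurf was lost, at −0.50 and −0.43, without Pak1 +/+ replicate 1 (adjusted p = 0.05) or 2 (0.071). Beside Trim25, Coil differed by −0.15 (adjusted p = 0.153) and Dgke by −0.24 (adjusted p = 0.0595, and 0.0487 with the filter on all 4 arrays). Beside Usp18, Tuba8 rose by 0.89 (adjusted p = 0.00145), and Slc6a13 differed by −0.40 (adjusted p = 0.0526). It passed the threshold with the replicate block (adjusted p = 0.0233), with the normexp signal scaled to the 75th percentile (0.0432) and, at −0.54, without Pak1 -/- replicate 2 (0.0381), and was −0.26, not past it, without Pak1 -/- replicate 1. Of the nearest gene on each side, neither beside Trim25 passed the threshold, while the alpha tubulin Tuba8 beside Usp18 did. Of 28 tested genes among the 3 nearest on each side, 8 were higher and 6 lower, within a range of −1.09 to 1.07. The shares over all genes tested were 22.8% and 28.2%. With either Pak1 +/+ sample left out, 5 were higher and 4 lower.

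**Figure D4:**
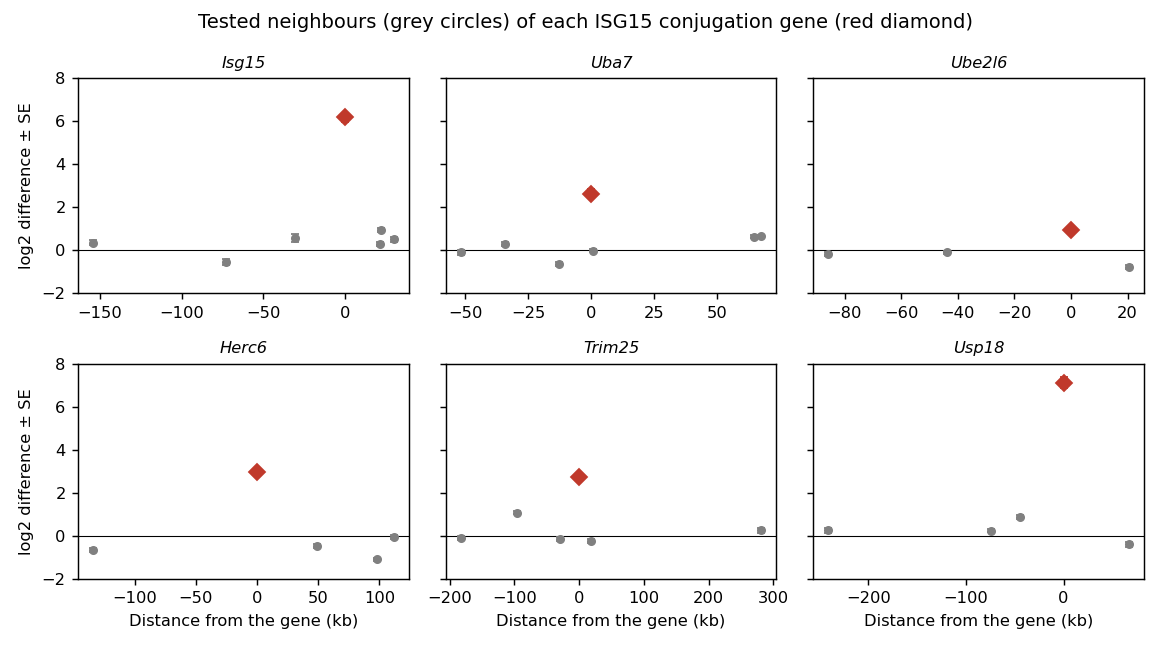
Log2 difference, Pak1 -/- minus Pak1 +/+, with SE (vertical axes), against the distance in kb between probes (horizontal axes) for the tested genes among the 3 nearest on each side of each ISG15 gene. Red diamonds are the ISG15 genes and grey circles their neighbours. The neighbours lie between −1.09 and 1.07, and the diamonds lie above them in each panel.

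Markers of the cell types that such cultures can hold were read beside these values. The counts of each marker list stand against 22.8% higher and 28.2% lower over all genes tested. Of 8 epithelial markers, all well above background on at least 3 arrays, 5 were higher and 1 lower. The basal keratin Krt14 rose by 2.83 (adjusted p = 7.51e-05) and the adhesion protein Cdh1 by 1.19 (adjusted p = 0.00116), while Krt7, a keratin of luminal cells, fell by 1.10 (adjusted p = 0.000555). The luminal keratins did not move one way. Krt8 rose by 0.57 (adjusted p = 0.00292). With the processed and the normexp signal scaled to the 75th percentile it differed by 0.27 (adjusted p = 0.0603) and 0.31 (0.0287). Krt18 differed by 0.27 (adjusted p = 0.0267), a call that was lost with any 1 sample left out (adjusted p = 0.059 to 0.138), with the replicate block (0.0564) and, at 0.037 and 0.041, with the same scalings (0.72 and 0.689). The summed level of the 8 markers was 1086450 to 1099310 in Pak1 -/- and 922568 to 929256 in Pak1 +/+ on the linear normalized scale. Without Pak1 -/- replicate 1 or Pak1 +/+ replicate 1, 3 of them were higher.

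Of 13 leukocyte markers, 8 were tested in limma, with none higher and 2 lower, also at an unadjusted p under 0.05. Ptprc (CD45), which marks all leukocytes, read 7.15 and 7.14 in Pak1 -/- and 7.59 and 7.60 in Pak1 +/+ and fell by 0.45 (adjusted p = 0.00556), and the macrophage marker Adgre1 fell by 1.05 (adjusted p = 0.00107). The brightest probes of Siglech and Itgam read 17.47 to 17.91 and 15.20 to 16.07 over the arrays. Neither passed the threshold (limma adjusted p = 0.152 and 0.11). The other Itgam probes tested averaged only 7.66 and 7.65, and 1 of 2 Siglech probes was tested. The summed level of the list, in which the brightest probes weigh most, was 252640 to 324904 in Pak1 -/- and 228763 to 239057 in Pak1 +/+. Lyz2 and Itgax were not well above background on the 4 arrays. Without Pak1 -/- replicate 2, 2 leukocyte markers were higher.

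Few fibroblast markers were well above background. The endothelial markers Kdr (12.99 to 13.27) and Pecam1 (9.23 to 9.47) were so on all 4 arrays. Of 8 fibroblast markers 3 were tested, and Col1a1 rose by 1.12 (adjusted p = 0.00507), with a summed level of 1375 to 1564 against 1213 to 1251, while Col3a1, Dcn, Lum and Pdgfrb were not well above background on the 4 arrays. Of 4 endothelial markers 3 were tested in limma. By the brightest probe none passed the threshold, also with no adjustment of p, with a summed level of 9921 to 10302 against 8989 to 10803. A dimmer probe of Kdr (mean log2 intensity 7.30) rose by 1.37 (limma adjusted p = 0.000455), while the brightest differed by 0.043. The part of these markers in the differences of the ISG15 genes was not tested.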

How the data were processed

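Per the file headers, the authors read the arrays with Agilent Feature Extraction 9.5.3.1 and deposited each spot's intensity on a linear scale. The authors also deposited log2 values, which their methods describe as corrected with normexp and quantile normalized, and these served as an alternative. Here background was corrected with normexp (limma 3.58.1, R 4.3.3) at an offset of 50, which understates differences of dim probes, and log2 values of 43020 non-control spots were quantile normalized. Outlier spots were set aside and spots of a probe averaged. Of 39429 probes, 27215 (69.0%) had a value on all 4 arrays and were well above background on at least 2. They were tested together with limma (moderated, two-sided, genotype as the only term) with Benjamini-Hochberg adjustment over all of them and a threshold of 0.05. Offset, filter and adjusted threshold were set here. Names came from RefSeq accessions (26055 probes), otherwise from the file.

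An exact permutation test of 2 against 2 samples cannot give a p below 0.333, and the number of arrays limits the precision. P-values measure only the spread between these samples. On simulated data of this size, 86 of 100 probes changed by 2 log2 and 58 of 100 changed by 1 log2 were recovered, with 3 false calls among 27215 probes.

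The 6 genes and the gene lists were chosen with earlier results of these data known. Named genes followed a rule: every partner of ISG15 on the list, from each other list the 2 genes with the largest increase and the 2 with the largest decrease past the threshold, the 3 nearest profiles and the nearest gene on each side. Ifnb1, Ifna4, Eif2ak2, Ddx58, Krt8, Krt18, Siglech, Itgam, Kdr, Pecam1, Timm10, the dim markers and the promoter hits were named after their values were seen. The SE of the 6 genes comes from their 4 arrays and that of tested genes from limma. Alternatives changed the offset (0 or 16), scaling (75th percentile or cyclic loess), filter, outlier spots, threshold, choice of probe and samples. Figures were drawn with matplotlib 3.10.9. No column of samples was left unused. One item of the lists is not reported here.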

Additional observations from a re-analysis of the deposited data

How the results depend on the processing

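No difference of the 6 ISG15 genes changed sign in 15 alternatives, and of 90 values 88 moved by less than the spread between replicates. The others were those of Herc6 (3.22) and Usp18 (7.45) with the processed signal scaled to the 75th percentile. The median of the 6 genes was 2.84, and 2.74 to 2.98 with 1 sample left out. The labels' replicate numbers do not pair samples across groups (r = −0.026 between the replicate differences of the groups, across genes). With the replicate block the median stayed 2.84, with 6017 probes higher and 7185 lower against 6354 and 7790, and 3 partners of ISG15 in each direction. At an adjusted p under 0.01, 4194 probes were higher and 4706 lower. Cyclic loess turned the balance to 7330 higher and 6654 lower. Of the genes in all lists, 53 were higher (65 with cyclic loess) and 43 lower (30 with cyclic loess), 23 to 30 with 1 sample left out and 18 at an adjusted p under 0.01. Of 384 counts for other single lists under an alternative, 66 moved by over 1.5 times. Cyclic loess raised the ubiquitin-like modifiers that were higher from 7 to 11, and scaling to the 75th percentile lowered them to 3 or 4. Uba1 passed the threshold in 7 of 16 alternatives. Values near 0 changed sign without passing the threshold: Ifnar2 was −0.022 with the processed signal and −0.011 to 0.11 with 1 sample left out, Ube2e2 0.079 with cyclic loess and −0.11 to 0.085, and Usp5 0.14 with cyclic loess and 0.039 in the authors' table. Sqstm1 was −0.084 to 0.29 and Inka1 −0.086 to 0.040 with 1 sample left out. The causes were not tested.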
